A study of Mus musculus with 16 samples.

Results

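At e15.5, 126 of the 960 wells met the limits set for connective tissue cells with transcripts of the cell division cycle. A well was counted when it had at least 10000 UMIs (unique molecular identifiers, each standing for 1 captured mRNA molecule), less than 10% mitochondrial UMIs, at least 2000 CPM (UMIs per 1000000 UMIs of the well) of the type I collagen genes *Col1a1* and *Col1a2* together, less than 100 CPM of the sensory neuron genes *Avil* and *Isl1* together, and at least 100 CPM of the proliferation genes *Mki67* and *Top2a* together. The wells were chosen by these measured values, so the levels of *Mki67*, *Top2a*, *Col1a1*, *Col1a2*, *Avil* and *Isl1* are given below as a description only. The 226 connective tissue wells with less than 100 CPM of *Mki67* and *Top2a*, named non-cycling wells here, served as the comparison within each library. Together the 352 connective tissue wells were drawn from 860 e15.5 wells that passed the limits on depth and mitochondrial share. At p1, 1 of 576 wells passed the connective tissue limits and 0 met the whole rule, so all results are from e15.5.

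The study isolated single cells from dorsal root ganglia (DRG) of thoracic and lumbar levels to describe proprioceptors, the sensory neurons that report muscle state to the spinal cord. The e15.5 samples were 10 CEL-Seq2 libraries of 96 wells each, made from PvtdTom mice, a BAC transgenic line in which the parvalbumin promoter drives tdTomato, and cells positive for tdTomato were collected by fluorescence-activated cell sorting. All e15.5 libraries carry the same strain, tissue and age labels; the level, litter and number of animals behind each library are not given in the labels. The labels name the tissue as proprioceptive sensory neurons, whereas the wells described here held collagen transcripts and were chosen for low *Avil* and *Isl1*. Whether these cells had made tdTomato or passed the sort for another reason was not tested.

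Connective tissue cells surround the ganglion and its nerves and take part in the capsule, the nerve sheaths and, farther out, tendon and cartilage. They make collagens and the enzymes that fold and cross-link them. In the embryo many of these cells still divide. A dividing cell passes from G1 through S phase, when DNA is copied and core histones are made, and through G2 into mitosis, and the transcripts of each stage rise and fall together under E2F factors for S phase and the DREAM and MuvB complexes for G2 and mitosis. *Mki67* encodes a protein that coats mitotic chromosomes, and *Top2a* encodes the topoisomerase that untangles copied DNA.

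The start sites of the genes named below show how the genes of G2 and mitosis differ from other genes in sequence, a property the rule did not use. The windows below are those of both genes of the rule, of *Cenpf* and *Hmmr*, which are among the 10 largest rises, and of *Clspn*, a named S phase gene. They run from 250 bases before to 30 bases after the RefSeq start site (GRCm38.p6, printed 5′ to 3′ on the strand of the gene). Capitals mark each match, on either strand, to the cell cycle homology region (CHR, TTTGAA, the letters bound by MuvB), the CCAAT box (CCAAT, the letters bound by NF-Y) or the E2F letters TTTCCCGC, TTTGGCGC and TTTCGCGC.
*Mki67* (chr7:135716350-135716629, minus strand): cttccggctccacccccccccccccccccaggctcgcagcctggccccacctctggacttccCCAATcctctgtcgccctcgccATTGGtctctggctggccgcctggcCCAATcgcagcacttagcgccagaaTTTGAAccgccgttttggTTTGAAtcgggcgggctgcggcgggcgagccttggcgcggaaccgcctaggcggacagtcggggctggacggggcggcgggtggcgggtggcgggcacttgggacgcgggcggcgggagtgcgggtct
*Top2a* (chr11:99024160-99024439, minus strand): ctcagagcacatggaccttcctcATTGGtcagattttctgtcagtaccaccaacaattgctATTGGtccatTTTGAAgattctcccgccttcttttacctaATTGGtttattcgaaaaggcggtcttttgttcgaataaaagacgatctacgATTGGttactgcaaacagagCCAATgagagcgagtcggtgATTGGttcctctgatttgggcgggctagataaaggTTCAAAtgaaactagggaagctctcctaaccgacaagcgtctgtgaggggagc
*Cenpf* (chr1:189688057-189688336, minus strand): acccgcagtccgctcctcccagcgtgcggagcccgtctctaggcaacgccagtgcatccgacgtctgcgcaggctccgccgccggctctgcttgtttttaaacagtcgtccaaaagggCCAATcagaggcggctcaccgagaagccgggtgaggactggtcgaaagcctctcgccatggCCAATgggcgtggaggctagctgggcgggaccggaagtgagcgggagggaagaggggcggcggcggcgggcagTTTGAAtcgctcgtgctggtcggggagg
*Hmmr* (chr11:40733408-40733687, minus strand): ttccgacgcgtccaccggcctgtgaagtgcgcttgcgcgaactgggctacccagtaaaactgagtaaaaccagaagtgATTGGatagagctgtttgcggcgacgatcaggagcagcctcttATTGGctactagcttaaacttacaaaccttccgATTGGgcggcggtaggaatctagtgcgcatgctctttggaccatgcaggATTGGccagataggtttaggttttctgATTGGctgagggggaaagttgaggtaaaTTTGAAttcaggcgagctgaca
*Clspn* (chr4:126556730-126557009, plus strand): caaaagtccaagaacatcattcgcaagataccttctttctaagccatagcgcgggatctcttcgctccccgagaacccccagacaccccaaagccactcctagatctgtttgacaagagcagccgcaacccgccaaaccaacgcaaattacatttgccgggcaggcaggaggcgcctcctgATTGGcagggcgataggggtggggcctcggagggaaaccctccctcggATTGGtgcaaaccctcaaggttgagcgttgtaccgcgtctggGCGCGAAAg

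CHR letters were found in 65.8% of the 73 RefSeq windows (300 bases, 250 before and 50 after the start) of the G2 and mitosis list, against 17.9% of all 32851 windows. The CCAAT box was present in 74.0% of the windows of the list and in 37.4% of all windows, and both letters together in 56.2% and 6.95%. The S phase list differed from it: of its 43 windows 11.6% held the CHR letters and 37.2% the E2F letters, which 1.84% of all windows held. The difference was not complete, since 55.8% of the S phase windows held the CCAAT box and 8.22% of the G2 and mitosis windows the E2F letters. The collagen list had CHR letters in 15.8% and E2F letters in 0.0% of its 19 windows. In the windows above, *Mki67* holds 2 CHR matches, the first 116 bases before the start. *Clspn* holds CCAAT boxes and, 21 bases after the start, E2F letters. The table matched 67 of 79 genes of the G2 and mitosis list and 36 of 45 of the S phase list; a match of letters is no evidence of binding.

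The cycling wells were found in every one of the 10 libraries, from 1 well in libraries 9 and 10 to 26 in library 6. They made up 35.8% of the connective tissue wells (126 of 352, exact binomial 95% interval 30.8 to 41.0). Among the 8 libraries with at least 3 wells of each class, the share ran from 10.8% in library 3 (4 of 37 wells) to 46.3% in library 8 (19 of 41). Library 3 stood apart from the other 7 libraries, whose lowest share was 34.2%. Tests were run over these 8 libraries as replicates, and because no label says that they came from separate litters, the p-values measure the spread between libraries only.

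The depth of a cycling well ran from 12166 to 74263 UMIs with a median of 30979.5, and the median non-cycling well had 27588 UMIs. The library median of cycling wells exceeded that of non-cycling wells by 0.16 ± 0.17 on the log2 scale (SD, n = 8 libraries). It was higher in 6 of 8 libraries. Total UMIs set the floor of 10000 and divide every CPM limit, so depth and class are linked by the rule. The difference in depth is therefore a description, and no p is given. It was 0.071 at a limit of 50 CPM of *Mki67* and *Top2a* and 0.31 at 200 CPM. When each well was thinned to 10000 UMIs, cycling wells held more detected genes, with library differences from 41.0 to 228.5 genes. The mean difference was 118 ± 67.1 genes (SD, n = 8; higher in 8 of 8 libraries; exact permutation test, p = 0.00781, the smallest that 8 libraries can give). These counts of detected genes include *Mki67*, *Top2a* and other cell cycle genes, which the choice of wells raises. The difference without them was not tested. The whole e15.5 libraries held 3701900 to 9299431 UMIs, and intervals on shares cover counting error only.

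Wells with blood RNA stood apart. In library 7, 1 cycling well of 13210 UMIs had 835201 CPM of hemoglobin genes, 1012 detected genes, 5 UMIs of *Mki67* and *Top2a* and 5148 CPM of *Col1a1* and *Col1a2*. A further cycling well had 145835 CPM of hemoglobin genes and 2167 CPM of both collagen genes. Both wells met the rule, but hemoglobin exceeded collagen in them, which goes against the name connective tissue cell. Among non-cycling wells, 1 well of library 6 had 189375 CPM and 1 of library 7 had 10272.5 CPM. The number of genes that passed the test without these 4 wells is given beside the main count below. A well with 5 or more UMIs of both *Xist* and Y-linked genes, a sign of 2 cells in 1 well, was found 0 times among the 126 cycling wells and 2 times among the 226 non-cycling wells, and no other search for doublets was made.

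*Mki67* and *Top2a* together ran from 100.7 to 4562.6 CPM in the cycling wells, with a median of 878 CPM, which rests on 2 to 248 UMIs. The 5 wells just inside the limit had 100.7 to 103.6 CPM and the 5 just outside it 93.6 to 97.1 CPM, from 2 to 4 UMIs in all 10. In the summed wells of a library, *Mki67* ran from 374 to 1186 CPM in cycling wells and from 2.99 to 21.1 CPM in non-cycling wells. *Top2a* ran from 562 to 1788 CPM and from 0 to 25.9 CPM.

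The limit cuts a range rather than a gap. The median summed level of the G2 and mitosis list (79 genes, 78 of them in the table, without the genes of the rule) was 631 CPM in the 132 wells with no UMI of *Mki67* or *Top2a*. It was 862 CPM in the 50 wells at 50 to below 100 CPM and 921 CPM in the 21 wells at 100 to below 200 CPM. Above these it was 3032 CPM in the 46 wells at 200 to below 1000 CPM and 15059 CPM in the 59 wells at 1000 CPM and above. The 21 wells just above the limit therefore lay near the wells below it, and the 105 wells at 200 CPM and above carried most of the cell cycle transcripts. For comparison, 390 e15.5 wells with neuron genes and less than the limit of collagen had a median of 654 CPM of the same list, and 17 of them (4.36%, 2.56 to 6.89) reached 100 CPM of *Mki67* and *Top2a*.

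**Figure D1:**
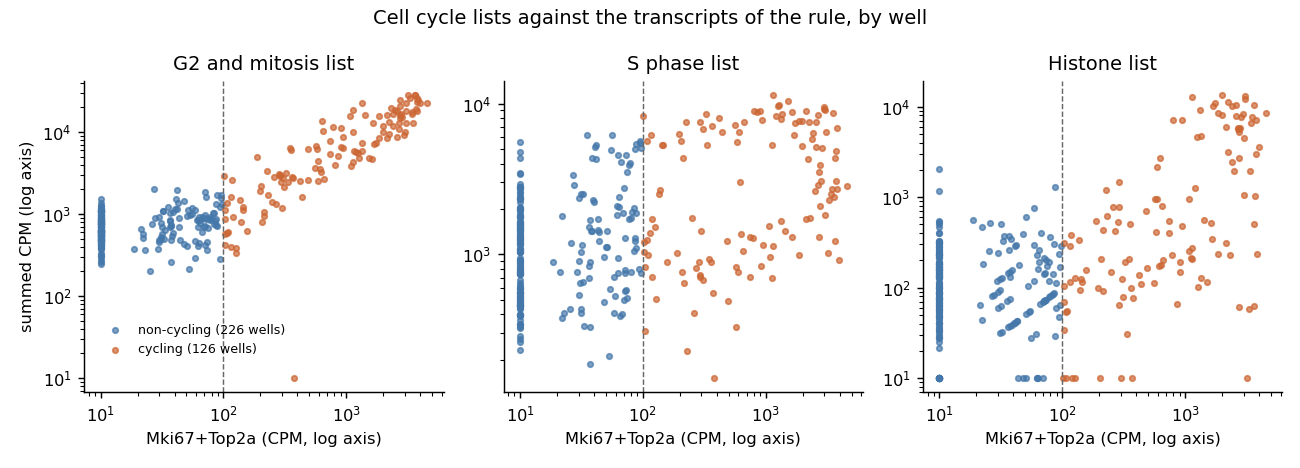
Each point is 1 connective tissue well, with *Mki67*+*Top2a* in CPM on the log x axis and the summed CPM of the G2 and mitosis, S phase or histone list on the log y axis. Values under 10 are drawn at 10, the dashed line is the limit of 100 CPM, and the G2 and mitosis list leaves the level of the non-cycling wells (blue, 226 wells) only among cycling wells (orange, 126 wells) past the limit, while S phase levels of both classes overlap.

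The remaining label markers were high in the same wells. *Ccna2* (ENSMUSG00000027715, chromosome 3, 36564865 to 36572150, GRCm38), the cyclin of S phase and G2, ran from 162 to 424 CPM in the cycling wells of the 8 libraries with a median of 331 CPM, and from 1.82 to 10.3 CPM in the non-cycling wells with a median of 5.01 CPM. *Birc5* (ENSMUSG00000017716, chromosome 11, 117849251 to 117855743), the survivin subunit of the chromosomal passenger complex, ran from 109 to 500 CPM and from 2.11 to 17.6 CPM. For neither gene did the ranges of the classes overlap. The fit across all genes was edgeR's quasi-likelihood test with library as a block and Benjamini-Hochberg adjustment over 8381 genes. In it *Ccna2* was higher by 5.78 on the log2 scale (SE 0.23) and *Birc5* by 4.97 (SE 0.24). Both passed the filter on low counts (16.6 CPM in 8 sums) through the cycling wells alone. This means that all cycling sums reached it and not all non-cycling sums did, which favours a rise without forcing a call. *Cdkn1a* and *Tgfbi* passed the filter in this way and did not pass the test. For such genes the values are a description here and below, and no p is given.

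At 10000 UMIs per well, *Ccna2* had a UMI in 78 of 126 cycling wells (61.9%, exact 95% interval 52.8 to 70.4). The share was 13 of 226 non-cycling wells (5.75%, 3.10 to 9.64) and 19 of 390 neuron wells (4.87%, 2.96 to 7.50), in which postmitotic neurons should lack it. Before thinning, the median depths of these 3 sets were 30979.5, 27588 and 110618 UMIs. The share of non-cycling wells lies within the interval of the neuron wells, so no *Ccna2* expression in non-cycling wells is read from it. The neuron wells are not free of cycling transcripts, since 17 of the 390 reached the limit on *Mki67* and *Top2a*. *Cenpf*, which encodes a kinetochore protein, had a UMI in 48.4% of cycling, 2.21% of non-cycling and 4.36% of neuron wells. *Rrm2*, a gene of S phase, had one in 52.4% of cycling wells and in 11.5% of non-cycling wells (7.65 to 16.4), above the 7.18% of neuron wells (4.82 to 10.2), with intervals that overlap.

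Of the 8381 genes tested, 578 (6.9%) were higher and 243 (2.9%) lower in cycling wells, 9.8% in all. Without the 4 wells with hemoglobin RNA the counts were 583 and 256. The median log2 fold change of all genes was -0.04. The CPM of the 8 libraries did not overlap between classes for 273 genes (3.26%) that were higher and for 7 (0.0835%) that were lower. The comparison carries the choice of wells in it: a gene that is present mostly in dividing cells passes the filter on low counts through the cycling wells, and lists with many such genes are counted apart below.

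**Figure D2:**
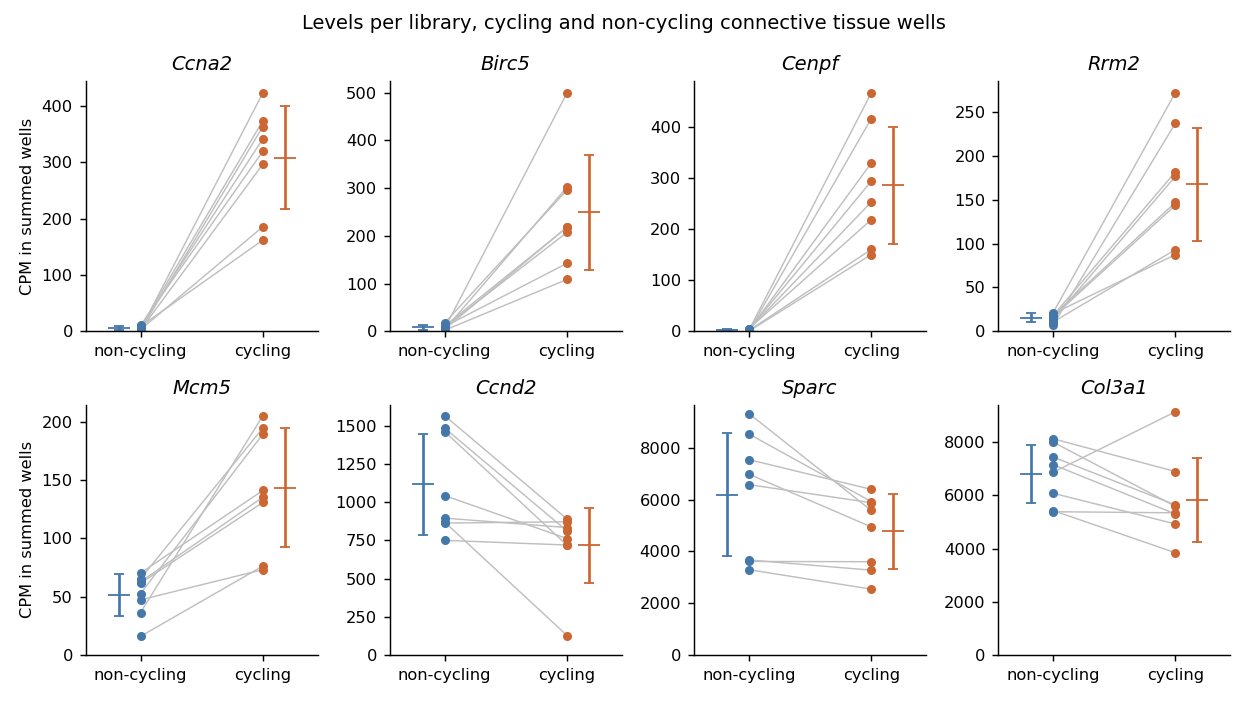
CPM of 8 genes in the summed cycling (orange) and non-cycling (blue) wells of libraries 1 to 8, with grey lines joining the classes of 1 library and bars giving the mean ± SD. *Ccna2*, *Birc5*, *Cenpf*, *Rrm2* and *Mcm5* were higher in cycling wells in 8 of 8 libraries with no overlap, while *Ccnd2*, *Sparc* and *Col3a1* overlapped.

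Among protein-coding genes of at least 20 CPM that passed the test, the 10 largest rises were mitotic and histone genes, all 10 of which passed the filter through the cycling wells alone: *Nuf2*, *Kif2c*, *Hmmr*, *Aurkb*, *Hist1h2ao*, *Cenpf*, *Hist1h2an*, *Bub1b*, *Hist1h2ah* and *Tpx2*. *Nuf2*, a subunit of the NDC80 complex that holds microtubules at the kinetochore, ran from 41.4 to 212 CPM in cycling wells and from 0 to 1.21 CPM in non-cycling wells. It had 449 UMIs in the cycling wells and 3 in the non-cycling wells, a ratio of CPM of 236 with an exact 95% interval of 80.3 to 1150. *Kif2c*, a kinesin that removes tubulin from microtubule ends, had 222 UMIs against 1, a ratio of 350 with an interval of 62.2 to 13900. *Aurkb*, the kinase of the chromosomal passenger complex, had 341 UMIs against 3, a ratio of 179 with an interval of 60.9 to 874. These 3 intervals cover the counting of UMIs pooled over the 8 libraries and leave out the spread between libraries.

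*Cenpf* ran from 150 to 466 CPM in cycling and from 0 to 4.83 CPM in non-cycling wells and was higher by 6.95 on the log2 scale (SE 0.24). *Hmmr*, a spindle and hyaluronan-binding protein, ran from 99.95 to 354 CPM and from 0 to 3.62 CPM, a log2 fold change of 7.19 (SE 0.30). *Tpx2*, an activator of Aurora kinase A on the spindle, ran from 143 to 466 CPM and from 0 to 6.31 CPM. *Bub1b*, a kinase of the spindle checkpoint, had a median of 81.7 CPM in cycling wells and ran from 0 to 2.11 CPM in non-cycling wells. None of these genes overlapped between classes.

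Summed over the whole G2 and mitosis list, the cycling wells had 5918 to 17782 CPM (median 10894) and the non-cycling wells 587 to 961 CPM (median 775), with no overlap in any of the 8 libraries. Of 72 genes tested, 71 were higher and 0 lower, with a median log2 fold change of 5.20. Since 64 of the 72 passed the filter through the cycling wells alone, which favours a rise, that count is a description. The 7 genes that passed it in each class were *Bub3*, *Ckap5*, *Cks1b*, *Hjurp*, *Smc2*, *Smc4* and *Ube2s*, and 7 of 7 were higher with a median of 1.56, against 5.68% of the 4855 genes of the same kind. *Hjurp*, the chaperone that places the centromeric histone, ran from 69.0 to 131 CPM in non-cycling and from 260 to 424 CPM in cycling wells (log2 fold change 1.56, SE 0.13, edgeR quasi-likelihood adjusted p = 8.17e-08). The 1 tested gene that did not pass was *Pttg1*, which encodes securin, at 7.12 to 34.0 CPM in cycling and 11.2 to 35.9 CPM in non-cycling wells (adjusted p = 0.341).

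Among the kinases and cyclins that drive mitosis, *Cdk1* ran from 166 to 601 CPM in cycling wells and from 9.79 to 48.3 CPM in non-cycling wells. *Ccnb1*, its mitotic cyclin, ran from 73.4 to 357 CPM and from 0 to 6.03 CPM, and *Plk1*, a kinase of mitotic entry, from 43.1 to 195 CPM and from 0 to 3.51 CPM. *Cdc20*, which turns on the anaphase-promoting complex, ran from 24.1 to 135 CPM and from 0 to 2.41 CPM. These 4 genes were chosen after their values were seen, and they passed the filter through the cycling wells alone. They were higher in 8 of 8 libraries, by 9.86-fold for *Cdk1* and by 70.0-fold, 63.4-fold and 52.7-fold for *Ccnb1*, *Plk1* and *Cdc20*.

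The S phase list was present in both classes. Its sum ran from 2430 to 5377 CPM in cycling wells and from 868 to 2363 CPM in non-cycling wells, so the classes did not overlap but lay much closer than for the mitotic list. Of 43 genes tested, 38 were higher and 0 lower, and among the 13 that passed the filter in each class 11 were higher, with a median log2 fold change of 0.94 (5.68% of all genes of that kind were higher). A further 25 passed through the cycling wells alone. *Mcm2*, *Mcm4*, *Mcm6*, *Gins1* and *Ung* did not pass, with adjusted p from 0.0728 to 0.848 in edgeR's quasi-likelihood test. The first 3 encode subunits of the replicative helicase, *Gins1* a part of its holoenzyme and *Ung* the uracil glycosylase of DNA repair.

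The named genes of S phase were *Tk1*, *Rrm2*, *Cdc45* and *Clspn*, which passed the filter through the cycling wells alone. *Rrm2*, the small subunit of ribonucleotide reductase, ran from 87.4 to 272 CPM in cycling and from 6.98 to 21.1 CPM in non-cycling wells (10.1-fold). *Tk1*, the thymidine kinase of S phase, ran from 80.3 to 271 CPM and from 0 to 10.5 CPM (31.3-fold). *Cdc45*, a helicase cofactor, ran from 23.9 to 73.4 CPM and from 0 to 11.1 CPM (9.04-fold), and *Clspn*, which encodes the replication checkpoint mediator claspin, had medians of 91.3 and 10.9 CPM (7.20-fold). The classes did not overlap for any of the 4 genes. *Pcna*, the sliding clamp of the polymerases, was abundant in both classes, at 250.3 to 629 CPM and 107 to 257 CPM (2.37-fold, edgeR quasi-likelihood adjusted p = 3.87e-05).

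Replication-dependent histone genes, whose mRNAs are made in S phase and mostly lack a poly(A) tail, were counted for 68 symbols, of which 11 passed the filter. Their sum ran from 1213 to 5803 CPM in cycling wells and from 99.1 to 213 CPM in non-cycling wells. *Hist1h2ah* ran from 136 to 873 CPM and from 2.41 to 7.39 CPM (log2 fold change 6.56, SE 0.18). *Hist1h2aj*, annotated as a pseudogene, *Hist1h2an* and *Hist1h2ao* had log2 fold changes of 7.04, 6.66 and 6.95. Values of single histone genes are uncertain, because their copies are nearly identical and reads can be split among them, so the sum is the firmer measure. How much of the histone mRNA without a tail was captured was not tested, for the sum as for single genes. Of the 11, 9 were higher and 0 lower, *Hist1h2bc* and *Hist3h2a* not passing. That count is a description, since 9 of the 11 passed the filter through the cycling wells alone and 0 in each class.

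The wells of the cycling class did not share 1 state. The share of S phase UMIs among the UMIs of the S phase and the G2 and mitosis lists ran from 3.48% to 100% in single wells, with a median of 38.9%. The 100% is the well with 835201 CPM of hemoglobin genes, which held 2 UMIs of these lists, and without both cycling wells with hemoglobin RNA the highest share was 82.5% and the median 38.9%. The 48 wells with less than 20% had a median of 504 CPM of histone genes, the 43 wells from 20% to 60% had 4491 CPM, and the 35 wells with more than 60% had 102 CPM. These limits were set after the values were seen. Histone transcripts were thus concentrated in wells that held both programs, and wells with the highest S phase share had a histone level near that of the non-cycling wells.

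Drawn against each other, the lists placed the 126 wells on an arc. With limits of 3000 CPM for the S phase list and 5000 CPM for the G2 and mitosis list, also set after the wells were plotted, 26 wells were above the S phase limit alone, with a median of 115 CPM of histone genes. These 26 wells were not without mitotic transcripts: they had 1066 to 4865 CPM of the G2 and mitosis list, and 19 of them exceeded the highest non-cycling well (2024 CPM). Both lists were above their limits in 34 wells with a median of 7147 CPM of histone genes. The mitotic list alone was above its limit in 35 wells with 399 CPM, and 31 wells were below both with 157 CPM. The median *Mki67*+*Top2a* level of these 4 sets was 348, 2401, 1648 and 206 CPM, lowest in the sets with a low mitotic list. The last set was also the shallowest, with a median of 19378 UMIs against 39651 in the wells with both lists.

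**Figure D3:**
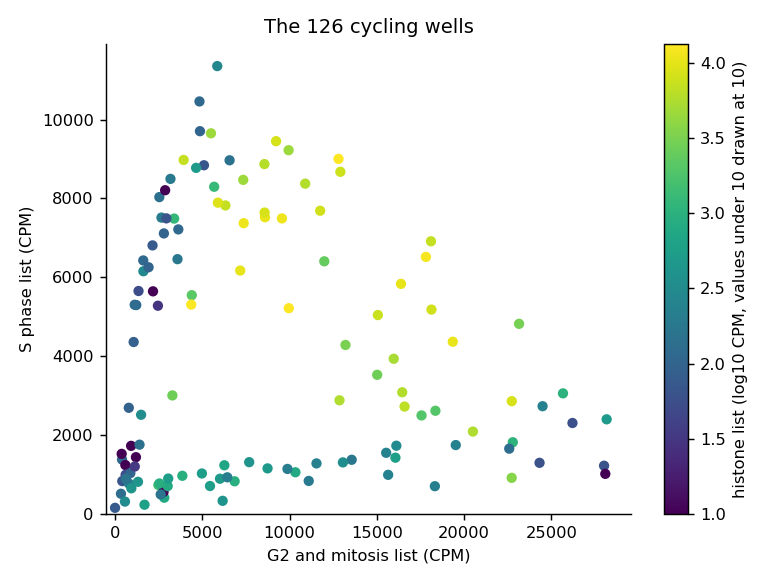
Each of the 126 cycling wells by its summed CPM of the G2 and mitosis list (x axis) and of the S phase list (y axis), coloured by the log10 CPM of the histone list. Wells rise along the S phase axis at less than 5000 CPM of the mitotic list and low histone levels, cross to the right with the highest histone levels (median 7147 CPM where both lists are high), and lie along the x axis at 399 CPM.

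The same S phase transcripts were found below the limit of the rule. Of the 226 non-cycling wells, 24 (10.6%) had at least 3000 CPM of the S phase list, in 6 libraries, with a median of 75.1 CPM of histone genes, and 0 had 5000 CPM of the mitotic list. At 10000 UMIs per well, 33 of 226 non-cycling wells reached the cycling median of S phase UMIs (27.5), 24 reached that of histone UMIs (4) and 0 reached that of mitotic UMIs (60). The name non-cycling therefore describes the level of *Mki67* and *Top2a* and not an absence of S phase transcripts. Over libraries, the median S phase share of cycling wells ran from 14.8% in library 1 to 57.7% in library 4, from 4 to 26 wells each, and was not tested.

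Chromatin and tubulin genes of dividing cells were raised on a high base level. Their sum ran from 10082 to 16224 CPM in cycling wells and from 4938 to 7027 CPM in non-cycling wells, with no overlap. Of 34 genes tested 31 were higher and 0 lower, and 24 of the 27 that passed the filter in each class were higher (88.9%, against 5.68% of all genes of that kind) with a median log2 fold change of 1.10. *H2afx*, the histone variant of DNA damage signalling, ran from 90.7 to 432 CPM against 16.9 to 42.2 CPM (7.22-fold), and *Hmgb2*, a chromatin protein of dividing cells, from 63.8 to 364 CPM against 7.02 to 19.6 CPM (12.2-fold). *Asf1b*, a chaperone of new histones, and *Tuba1c*, an alpha-tubulin, were higher by 35.9-fold and 5.60-fold. Of these 4 genes *H2afx* passed the filter in each class (edgeR's quasi-likelihood test, adjusted p = 2.51e-09) and the others through the cycling wells alone. *Tuba1a*, *Tubb2a* and *Rbbp7* did not pass.

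Regulators of G1 moved in both directions. Of 17 tested, 6 were higher and 2 lower (6.9% and 2.9% of all genes), and their summed level overlapped between classes. Of the 8 that passed the filter in each class, 2 were higher, *Cdk2* and *Tfdp1*, and 2 lower (5.68% and 3.36% of all genes of that kind). *E2f7* and *E2f8* encode repressors that are themselves E2F targets. *E2f7* ran from 42.5 to 65.5 CPM in cycling and from 2.11 to 9.47 CPM in non-cycling wells, and *E2f8* had medians of 34.4 and 2.61 CPM (9.57-fold and 16.9-fold); both passed the filter through the cycling wells alone, as did *Rbl1*. *Tfdp1*, the partner of E2F factors, was higher by 1.94-fold (edgeR quasi-likelihood adjusted p = 0.000654). *Rbl1*, the pocket protein p107, *Lin9*, a MuvB subunit, and *Cdk2* were higher by 2.05-fold, 1.95-fold and 1.53-fold, with adjusted p of 0.0293 for *Lin9* and 0.0408 for *Cdk2*. The calls of these 3 genes were lost without library 4 or 6, and for *Rbl1* and *Cdk2* also without 2, 5 or 7 (and 3 for *Cdk2*), with adjusted p up to 0.119 for *Lin9* and 0.104 for *Cdk2*.

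Of the D-type cyclins, which carry growth signals into G1, 0 of 3 were higher. *Ccnd2* (chromosome 6, 127125162 to 127152193) was at 127 to 890 CPM with a median of 787 CPM in cycling wells and at 751 to 1568 CPM with a median of 971 CPM in non-cycling wells. It was lower in 7 of 8 libraries, with a log2 fold change of -0.68 (SE 0.19, edgeR quasi-likelihood adjusted p = 0.0319), and *Ccnd3* by 1.28-fold (adjusted p = 0.0245). *Ccnd1* had 76.2 to 203 CPM and 72.7 to 369 CPM (adjusted p = 0.955). Calls were lost without library 1, 2, 5 or 6 for *Ccnd2* and without 2, 4, 5 or 7 for *Ccnd3*, with adjusted p up to 0.0843 and 0.0767. *Ccnd2* and *Ccnd3* were chosen after their values were seen. *Ccne1* and *Ccne2*, the cyclins of the entry into S phase, were higher by 2.08-fold and 3.03-fold and passed the filter through the cycling wells alone.

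Inhibitors of the cycle and genes of quiescence mostly did not pass: 2 of 25 were higher, 2 were lower and 21 did not pass, beside 6.9% higher and 2.9% lower of all genes, with a median log2 fold change of -0.24. *Cdkn2d*, the inhibitor p19 of the kinases CDK4 and CDK6, was higher in cycling wells, at 32.7 to 169 CPM against 11.2 to 38.6 CPM (3.30-fold), and passed the filter through the cycling wells alone. *Mxd4*, an antagonist of MYC, was lower in 8 of 8 libraries, at 33.9 to 255 CPM against 171 to 393 CPM (1.77-fold, edgeR quasi-likelihood adjusted p = 0.000665). *Nfic*, a nuclear factor I gene, was higher by 1.31-fold (adjusted p = 0.00678), and *Foxo3*, a forkhead factor of quiescence, was lower by 1.51-fold, having passed the filter through the non-cycling wells alone, a call lost when any 1 of the 8 libraries was left out. *Cdkn1c*, the imprinted inhibitor p57, was abundant in both classes, at 1203 to 3321 CPM and 1017 to 2379 CPM (adjusted p = 0.850).

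The matrix program was present in both classes. *Col1a1* ran from 4948 to 13291 CPM and *Col1a2* from 9447 to 17711 CPM in cycling wells. Of 20 further collagen genes tested, 0 were higher, 2 lower (2.9% of all genes were lower) and 18 did not pass, with a median log2 fold change of -0.29 beside -0.04 for all genes. The count of 2 turned on single libraries: it was 6 without library 3, which held 4 cycling wells, 0 without library 2, 1 without library 1, 4, 6 or 7, and 5 without libraries 3 and 4 together. *Col3a1*, the collagen of loose fibrils, was at 3845 to 9150 CPM in cycling and 5389 to 8134 CPM in non-cycling wells, lower in 7 of 8 libraries without passing (log2 fold change -0.28, SE 0.09, edgeR quasi-likelihood adjusted p = 0.0594; without library 3 it passed, at -0.38 and adjusted p = 0.00165). *Col5a1*, which sets fibril width, was lower by 1.27-fold (adjusted p = 0.0196) and *Col24a1* by 2.43-fold (adjusted p = 0.0277). Their calls were lost without library 1 or 2, and for *Col24a1* also without 4, with edgeR adjusted p up to 0.0564 and 0.0696. *Col24a1* reached the filter on low counts in only 5 of the 8 fits that left out 1 library. It was called in 2 of these.

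Matrix glycoproteins and the collagen processing machinery also had mostly small differences. *Sparc*, a collagen-binding glycoprotein (chromosome 11, 55394500 to 55423183), was at 2542 to 6396 CPM in cycling and 3293 to 9327 CPM in non-cycling wells, lower in 8 of 8 libraries by 1.29-fold (log2 fold change -0.37, SE 0.08, edgeR quasi-likelihood adjusted p = 0.00581). *Ogn*, a small proteoglycan, was lower by 1.59-fold (adjusted p = 0.0252, up to 0.0759 without library 2, 6 or 7). Of the 34 matrix genes tested these 2 were lower and 0 were higher (5.88%, against 2.9% of all genes). Of 32 genes of collagen processing and secretion 6 were lower (18.8%, against 2.9% of all genes) and 0 higher, with a median log2 fold change of -0.22.

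Of these 6, *P3h1*, a prolyl 3-hydroxylase, ran from 77.7 to 169 CPM in cycling and 129.9 to 202 CPM in non-cycling wells (1.47-fold lower, edgeR quasi-likelihood adjusted p = 0.00579). *Fkbp14* and *Fkbp11*, prolyl isomerases of the endoplasmic reticulum, were lower in 8 of 8 libraries by 1.49-fold (adjusted p = 0.00558) and 1.75-fold, *Fkbp11* having passed the filter through the non-cycling wells alone. *P3h1* and *Fkbp14* passed the test in all 8 fits that left out 1 library. Both lost their calls with wells thinned to 10000 UMIs and without wells with glia or neuron RNA. Their edgeR quasi-likelihood adjusted p then rose to at most 0.541 and 0.892. *Adamts2*, the procollagen N-proteinase, *Rcn3*, a calcium-binding protein of the secretory path, and *P4ha1*, a prolyl 4-hydroxylase subunit, were lower by 1.44-fold, 1.33-fold and 1.30-fold (adjusted p = 0.0411, 0.0258 and 0.0483). Calls were lost without library 1, 2, 4, 5 or 7 for *Adamts2*, without 4 or 6 for *Rcn3* and without any 1 library for *P4ha1*, with adjusted p up to 0.125, 0.0541 and 0.132.

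**Figure D4:**
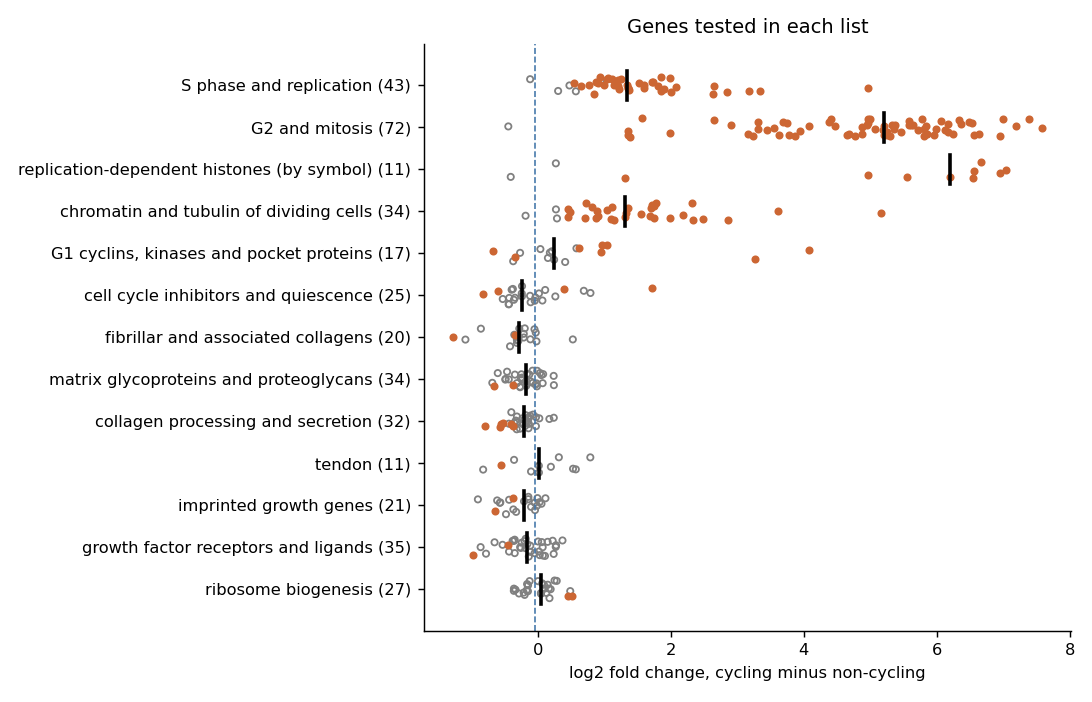
Log2 fold change (cycling minus non-cycling) of every tested gene of 13 lists, with the number tested in parentheses, genes that passed as filled points, the rest as open points, and the list median as a black bar. The dashed line is the median of all 8381 genes (-0.04), and the S phase, G2 and mitosis, histone and chromatin lists lie to its right, with medians of 1.34 for S phase and 5.20 for G2 and mitosis, while collagen and matrix lists lie at -0.29 to -0.18.

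Among the 10 largest falls, *Ptgds*, *Tmem150a*, *Aldh1a2*, *Ppp1r1a* and *Cp*, which encodes ceruloplasmin, had their 2 highest levels in the non-cycling wells of libraries 3 and 4. *Ptgds*, the prostaglandin D2 synthase of the meninges (chromosome 2, 25466709 to 25470046), had 3655 CPM in the non-cycling wells of library 3 and 1177 CPM in those of library 4, against a median of 21.3 CPM over the 8 libraries. Its cycling wells ran from 0 to 538 CPM with a median of 13.6 CPM (log2 fold change -2.34, SE 0.53, edgeR quasi-likelihood adjusted p = 0.0114). *Aldh1a2*, the enzyme that makes retinoic acid, ran from 0 to 489 CPM in non-cycling and 0 to 114 CPM in cycling wells (2.62-fold lower, adjusted p = 0.00188). *Cp* was lower by 2.61-fold (adjusted p = 0.0126). With both libraries left out, *Ptgds*, *Aldh1a2*, *Ppp1r1a* and *Cp* did not reach the filter on low counts and *Tmem150a* had an adjusted p of 0.0663, while *Ppp1r1a* lost its call without library 4 alone (adjusted p = 0.0730).

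**Figure D5:**
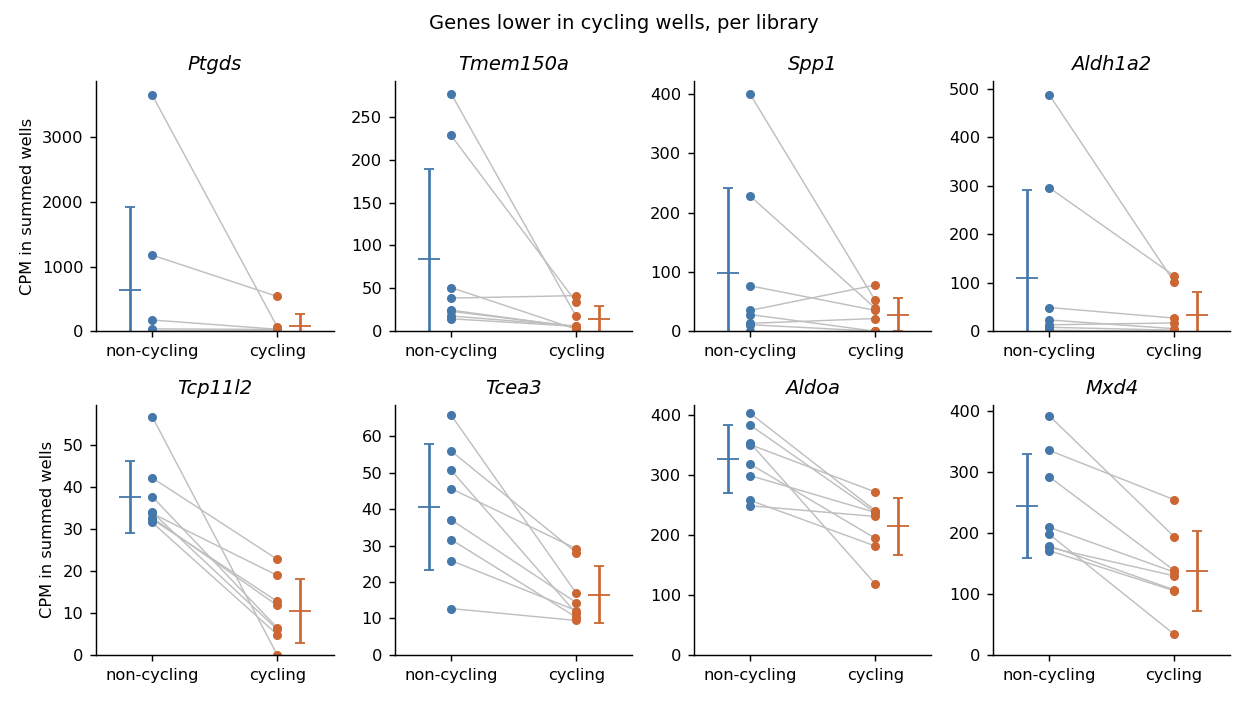
CPM of 8 genes that were lower in cycling (orange) than in non-cycling (blue) wells of libraries 1 to 8, with lines joining the classes of 1 library and bars giving the mean ± SD (cut at 0). *Ptgds* reached 3655 and 1177 CPM in the non-cycling wells of libraries 3 and 4, whereas *Tcp11l2* differed with no overlap and *Tcea3*, *Aldoa* and *Mxd4* were lower in 8 of 8 libraries.

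The other 5 of the 10 largest falls were *Tcp11l2*, *Tcea3*, *Parm1*, *Mylk* and *Spp1*. *Tcp11l2* (chromosome 10, 84576626 to 84614359) ran from 0 to 22.8 CPM in cycling and from 31.6 to 56.8 CPM in non-cycling wells, from 52 and 252 UMIs, with no overlap. It was lower by 3.17-fold (log2 fold change -1.66, SE 0.28) and passed the filter through the non-cycling wells alone. *Tcea3*, a transcription elongation factor of the TFIIS family, was lower in 8 of 8 libraries, at 9.45 to 29.1 CPM against 12.7 to 65.8 CPM (2.52-fold, edgeR quasi-likelihood adjusted p = 0.000467). *Parm1*, *Mylk*, the myosin light chain kinase, and *Spp1*, which encodes osteopontin, were lower by 2.76-fold, 2.49-fold and 3.32-fold (adjusted p = 0.0216, 0.0273 and 0.0237). Calls were lost without library 2 or 4 for *Parm1*, without 1, 4, 7 or 8 for *Mylk* and without 1, 4 or 6 for *Spp1*, with adjusted p up to 0.0649, 0.0782 and 0.135. Without libraries 3 and 4 together, *Mylk* and *Spp1* lost their calls (adjusted p = 0.0948 and 0.131).

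Lists of growth, metabolism and stress genes had shares of calls from 4.17% to 9.52%, beside 9.8% of all genes in either direction, 6.9% higher and 2.9% lower. Of 21 imprinted growth genes 0 were higher and 2 lower, *Meg3* by 1.56-fold and *Gnas* by 1.29-fold (edgeR quasi-likelihood adjusted p = 0.0357 and 0.0208). Both calls were lost without library 4, 5 or 7, and also without 2 or 6 for *Meg3* and without 1 for *Gnas*, with adjusted p up to 0.0906 and 0.0643. *Igf2*, the fetal growth factor, had 8857 to 13737 CPM in cycling and 9019 to 14563 CPM in non-cycling wells (adjusted p = 0.110). Without library 1 *Igf2* passed, at a log2 fold change of -0.29 and an edgeR adjusted p of 0.00978. Of 35 growth factor and receptor genes 2 were lower, *Igfbp4* by 1.36-fold in 8 of 8 libraries (adjusted p = 0.00550) and *Igfbp3* by 1.98-fold (adjusted p = 0.0265, up to 0.0881 without library 4, 5 or 6). Both encode proteins that bind insulin-like growth factors.

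Of 27 ribosome biogenesis genes, 2 were higher (7.41%, near the 6.9% of all genes), *Nop56* and *Ubtf*, by 1.37-fold and 1.42-fold (edgeR quasi-likelihood adjusted p = 0.0357 and 0.0257). *Nop56* belongs to the box C/D complex and *Ubtf* to the transcription of ribosomal RNA. Their calls were lost without library 2, 4 or 8, and also without 1 or 5 for *Nop56* and 6 for *Ubtf*, with adjusted p up to 0.113 and 0.0697. *Aldoa*, the glycolytic aldolase, was at 119 to 272 CPM in cycling and 249 to 403 CPM in non-cycling wells, lower in 8 of 8 libraries by 1.53-fold (adjusted p = 0.00256), as the 1 gene of 18 on the glycolysis list that passed. *Atf3*, a stress factor, was the 1 of 24 immediate early and stress genes that passed (1.97-fold lower, adjusted p = 0.0423, up to 0.107 without library 1, 2, 3, 4 or 7).

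Tendon and cartilage markers overlapped between the classes. *Tnmd*, the tenomodulin of tendon cells, ran from 0 to 781 CPM in cycling and from 0 to 681 CPM in non-cycling wells, and *Scx*, the scleraxis factor of tendon progenitors, from 0 to 382 CPM and 5.45 to 300.1 CPM (edgeR quasi-likelihood adjusted p = 0.702 and 0.477). At least 100 CPM of *Tnmd* was found in 0% to 45.8% of the cycling wells of a library and in 0% to 46.7% of its non-cycling wells. The difference of shares was 2.52 ± 12.9 percentage points (SD, n = 8; higher in 3 of 8 libraries and lower in 3; exact permutation test, p = 0.625), from -19.7 in library 6 to 21.7 in library 7. Of 11 tendon genes tested 1 was lower, *Htra3*, a secreted protease (1.48-fold, adjusted p = 0.0464, up to 0.132 without library 1, 2, 4, 5, 6 or 8). The share of tendon genes that were lower was 9.09%, against 2.9% of all genes. Of 17 cartilage and bone genes the 1 that passed was *Spp1*, which was lower (5.88%, against 2.9% of all genes).

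Markers of other cells were given for both classes, beside 9.8% of all genes tested that passed in either direction. The general fibroblast list summed to 7895 to 14377 CPM in cycling and 9165 to 12975 CPM in non-cycling wells, and 0 of its 12 tested genes passed. *Pdgfra*, the receptor of fibroblast progenitors, had 225 to 525 CPM and 167 to 487 CPM. The sensory neuron list (18 genes, 0 of 12 tested passing) summed to 689 to 1285 CPM in cycling and 880 to 2106 CPM in non-cycling wells, lower in cycling wells in 8 of 8 libraries. The glia list (0 of 6 passing) summed to 107 to 662 CPM and 70.9 to 819 CPM, and the pericyte list to 166 to 274 CPM and 133 to 412 CPM. The meninges and nerve sheath list had a median sum of 473 CPM (highest 808) in cycling and 458 CPM (highest 1872) in non-cycling wells. Of its 7 genes tested 2 were lower, *Aldh1a2* and *Crabp2*, a carrier of retinoic acid (28.6%, against 2.9% of all genes). Of the 2 genes of the list that passed the filter in each class, 0 were lower. *Crabp2* was lower by 2.11-fold, having passed the filter through the non-cycling wells alone, and lost its call without library 4, 5 or 6. The part of these cells in the falls of *Ptgds* and *Aldh1a2* was not tested. Endothelial, muscle and epithelial lists had no gene that passed the filter, with sums of at most 152, 50.8 and 29.1 CPM in cycling wells, and 1, 3 and 3 of their genes had 0 UMIs there. The blood list, with 2 of 12 genes at 0 UMIs in cycling wells, summed to 28.1 to 19460 CPM, the highest in library 7, which held the wells with hemoglobin RNA.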

How the data were processed

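Single tdTomato+ cells of e15.5 DRG were sorted into wells and sequenced by CEL-Seq2. The authors demultiplexed and mapped the reads and made the count matrices with the R package scruff, and the deposited values are UMI counts per gene and well with no cell or gene removed. Builds named in the submitters' processing notes are mm10 and GRCm38; Ensembl IDs were matched to GENCODE annotation of GRCm38, and 49412 of 49671 IDs had a symbol. All columns were used, each assigned to its library, and 0 well columns were identical. Columns are well numbers, so cell barcodes shared between libraries could not be counted.

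The wells and gene lists were chosen with earlier results of these data known. UMI counts were summed per library and class (at least 3 wells of each class, 8 libraries) and tested with edgeR (version 4.0.16) in R (version 4.3.3): filterByExpr, TMM, quasi-likelihood F test with library as a block, Benjamini-Hochberg adjustment over all genes, threshold 0.05. The filter kept genes at 16.6 CPM in 8 sums. Genes of the rule were left out of tests. Both classes of a number come from 1 library preparation, which pairs them. Deviations of same-library sums from the class mean correlated with r of 0.228 to 0.725 (median 0.51, 8 pairs, 2000 genes). Other pairs ran from -0.614 to 0.557 with a median of -0.17, which the use of the class mean lowers. For 5 of 8 cycling sums the non-cycling sum of the same library gave the highest r. Named genes were the label markers, the 10 largest rises and falls among called protein-coding genes of at least 20 CPM, and up to 4 called genes of each list (or its 2 highest where none passed); others were chosen after their values were seen. On simulated counts of this comparison (8131 genes) the test recovered 88.1% of 2-fold changes with 7.91% false calls. Only 2-fold and 4-fold changes were simulated, so the recovery of smaller changes was not measured. Single values were tested by exact sign flips over libraries. Thinning drew 10000 UMIs per well with seed 1. Python (version 3.11.15), NumPy (version 2.4.6) and pandas (version 2.3.3) were used otherwise. Alternatives included DESeq2 (version 1.42.0). Sequences are from RefSeq.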

Additional observations from a re-analysis of the deposited data

Results flagged for a closer look

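Values of the 8 libraries were compared for 1 library far from the others (gap to the nearest library over the whole range, above 0.526) in 53 sets of values, and 9 were found where chance gives about 1 in 20. Library 3, with only 4 cycling wells, gave 5 of the 9. Its share of cycling wells among connective tissue wells, 10.8%, was the lowest, with 34.2% in the nearest library. In its cycling wells the G1 list summed to 1389 CPM, below 2222 CPM in library 1. The collagen list summed to 25898 CPM there against 16725 CPM in library 8, the general fibroblast list to 14377 CPM against 10831 CPM, and the muscle list to 50.8 CPM against 24.3 CPM.

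Blood transcripts summed to 19460 CPM in the cycling wells of library 7, with 355 CPM in the nearest library, and to 6425 CPM in the non-cycling wells of library 6, with 525 CPM in the nearest. The cartilage and bone list summed to 8129 CPM in the non-cycling wells of library 1, against 3745 CPM in library 4. The sensory neuron list summed to 2106 CPM in the non-cycling wells of library 5, against 1458 CPM in library 8. No cause of these values was tested.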

How the results depend on the processing

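The main test gave 578 genes higher and 243 lower. Without the replicate block these were 479 and 115, the lower count falling past 1.5 times, and 475 and 98 of them were shared with the paired fit. With DESeq2, which tested 25063 genes and shifted the median log2 fold change from -0.04 to 0.11, 579 were higher and 147 lower, and with no filter on low counts 736 and 442. With libraries of at least 1 well of each class the counts were 358 and 161, and with wells thinned to 10000 UMIs 167 and 47 of 3980 genes, where 12 S phase and 33 mitotic genes were called in place of 38 and 71; with at least 1 well 26 mitotic genes were called. Leaving out 1 library gave 432 to 570 higher and 129 to 237 lower genes, with the lower count at 133, 129 and 152 without library 2, 4 or 6. After the data were seen, libraries 3 and 4 were left out together, which gave 450 higher and 148 lower, and wells with hemoglobin RNA (583 and 256) or at least 500 CPM of the glia list (545 and 205) were left out.

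Leaving out wells with at least 500 CPM of glia or sensory neuron genes left 11 cycling and 15 non-cycling wells over all libraries. Most connective tissue wells held that much neuron RNA. The fit was run on the 2 libraries that kept at least 3 wells of each class. It called 107 and 13 of 3014 genes, with 3 S phase genes, and turned the log2 fold change of *Pcna* (-0.10), *Mcm5* (-0.23), *Ccne1* (-0.69), *Ccne2* (-0.33), *Nop56* (-0.13), *Meg3* (0.63) and *Igfbp4* (0.26), none of which then passed. The difference in log2 UMIs per well, given as a description, was 0.071 at a limit of 50 CPM and 0.14 at 5000 CPM of collagen. With at least 5 wells it was 0.16, without glia or neuron RNA 0.26 and without glia RNA 0.15. It ran from 0.14 to 0.20 when 1 library was left out. The difference in detected genes was 227 in the 2 libraries without glia or neuron RNA, where no test can pass, and it passed in every other alternative run. In each of these runs the detected genes still included the cell cycle genes that the choice of wells raises. The share of *Tnmd*-positive wells passed in none, and the median S phase share of 38.9% was 51.2% at a limit of 50 CPM, 24.5% at 200 CPM and 31.0% with at least 3 UMIs. Of the main calls that were still tested, 0 changed sign in the 8 fits that left out 1 library, 4 of 804 did at a limit of 50 CPM and 34 of 448 did without glia or neuron RNA, where 1 of the 13 lower calls was shared with the main test.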
